A study of Mus musculus with 12 samples.

Results

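The 35 genes described here encode proteins that carry a cell through mitosis: the kinases and cyclins of mitotic entry, chromosome and kinetochore proteins, the spindle checkpoint, the proteins that start anaphase, spindle motors and the machinery of cytokinesis. They were taken as a named list by gene symbol, and all 35 were found among the 55335 gene rows of the count tables. Thymocytes of 6-week-old mice were studied by RNA-seq of total RNA and by ribosome footprinting, which sequences the pieces of mRNA that ribosomes protect from nuclease. One group was wild type (WT) and the other was knocked out (KO) for miR-181a/b-1, a locus that encodes the microRNAs miR-181a and miR-181b. Each group had 3 mice and each assay 3 libraries per genotype, which gave 4 groups and 12 libraries, and all cells, WT and KO, were put in 0.1 mg/ml cycloheximide, which stalls ribosomes, as soon as they were isolated. The labels do not state the strain, the sex, how the KO allele was made, or which RNA-seq and footprint libraries share a mouse.

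Mitosis begins when cyclin-dependent kinase 1 is switched on by cyclins A and B. Microtubules of the spindle then attach to chromosomes at kinetochores, and the checkpoint holds back the anaphase-promoting complex until all chromosomes are attached. That complex destroys cyclin B and securin, separase is set free to cut the cohesin that joins sister chromatids, and the cell divides. In the thymus these genes are on mainly in the dividing CD4- CD8- and early CD4+ CD8+ cells, while most CD4+ CD8+ thymocytes are small resting cells. MicroRNAs pair through their seed with target mRNAs and lower their stability or translation, and miR-181a is abundant in CD4+ CD8+ thymocytes.

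The mature strands that the KO lacks from this locus are shown because they define the perturbation, with the seed (bases 2 to 8) in capitals. Both are from RefSeq with the GRCm38.p6 build, where miR-181a-5p lies at chr1:137966468-137966490 and miR-181b-5p at chr1:137966650-137966673, both on the plus strand. The 2 strands have the same seed, and the same mature strands are also made from another locus that this KO leaves in place.
mmu-miR-181a-5p: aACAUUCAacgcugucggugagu
mmu-miR-181b-5p: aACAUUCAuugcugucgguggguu

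Many genes of mitosis are transcribed from promoters with a CCAAT box, bound by NF-Y, and a CHR element, bound by the MuvB complexes that repress these genes in resting cells and activate them before mitosis. The 250 bases before the RefSeq start (GRCm38.p6) were searched on both strands for CCAAT and for the CHR letters TTTGAA or TTTAAA, and matches of the 2 motifs may share letters at their ends. A promoter entry was present for 30 of the 35 genes, without Kif20a, Ccna2, Incenp, Tpx2 and Aurkb. CCAAT was found in 22 of the 30 (73.3%) against 37.5% of 27025 genes, the CHR letters in 16 (53.3%) against 28.1%, and both in 14 (46.7%) against 11.2%. A match is a description of letters and not a binding site. The 150 bases before the start are shown for 3 genes with both motifs and for Pttg1, the gene on which the KO comparison turns. Matches on either strand are in capitals.
Cdk1 (chr10:69352913-69353062, minus strand): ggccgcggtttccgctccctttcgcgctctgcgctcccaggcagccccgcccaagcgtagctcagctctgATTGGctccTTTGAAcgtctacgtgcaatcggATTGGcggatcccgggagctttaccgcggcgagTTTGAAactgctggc
Plk1 (chr7:122159285-122159434, plus strand): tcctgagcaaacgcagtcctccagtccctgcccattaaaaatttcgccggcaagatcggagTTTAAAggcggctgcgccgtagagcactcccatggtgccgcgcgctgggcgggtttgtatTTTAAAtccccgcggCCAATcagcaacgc
Top2a (chr11:99024190-99024339, minus strand): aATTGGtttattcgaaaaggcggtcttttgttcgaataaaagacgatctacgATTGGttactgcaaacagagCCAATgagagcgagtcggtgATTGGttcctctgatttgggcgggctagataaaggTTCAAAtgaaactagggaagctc
Pttg1 (chr11:43425982-43426131, minus strand): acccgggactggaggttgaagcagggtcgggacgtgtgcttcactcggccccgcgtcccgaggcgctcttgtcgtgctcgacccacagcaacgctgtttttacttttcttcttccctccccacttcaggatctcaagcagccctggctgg
Cdk1 has TTTGAA and Plk1 TTTAAA, each with a CCAAT box on 1 or the other strand, and Top2a has several CCAAT boxes and 1 CHR match. The Pttg1 window holds neither set of letters. The start that RefSeq gives for it in this table lies inside the span of the gene, so the window belongs to that start and another promoter of Pttg1 was not analysed here.

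Reads in genes numbered 4479182 to 8180286 per RNA-seq library and 4069968 to 17859770 per footprint library, the fewest in KO replicate 3. Levels are given as CPM, the counts of a gene per 1000000 reads in genes after TMM scaling, which sets the typical gene equal between libraries of an assay. Reads of the footprint libraries in Mir181a-1, a microRNA gene of the deleted locus, were at 133 to 166 CPM in WT and 0.464 to 1.04 in KO. Whether these reads came from ribosome-protected RNA was not tested. In RNA-seq the level of Mir181a-1 was 0.964 to 3.97 CPM in WT and 2.34 to 5.11 in KO, so it did not check the RNA-seq labels. The thymocyte label was met by the defining genes of CD4+ CD8+ cells, with Rag1 at 5460 to 7590 CPM, Cd8a at 1320 to 1460 and Cd4 at 1000 to 1180 over the 6 RNA-seq libraries. The counts, which the deposited tables call adjusted, had a mirrored spread: WT and KO libraries of the same replicate number deviated from their group means in opposite directions, with correlations across genes of -0.99 to -0.97 in RNA-seq (9078 genes) and -0.99 in footprints (8155 genes). The spread within a group may therefore not measure that between mice. Fits without a block take the libraries as independent, so their FDRs may be too low and their intervals too narrow. Calls between genotypes are therefore given beside a fit that holds the replicate number as a block. In such bulk samples, fewer dividing cells and less mitotic RNA per cell cannot be told apart.

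All 35 genes were expressed and passed the filter on low counts in every comparison. Their summed level was 4254 to 4886 CPM in the WT and 4573 to 5280 CPM in the KO RNA-seq libraries, and 10230 to 11840 CPM in WT against 9549 to 11070 CPM in KO footprints. The ranges of the genotypes overlapped in both assays. Mki67, the proliferation marker that coats mitotic chromosomes, and Top2a, the topoisomerase that untangles sister chromatids, gave the most reads, a count that is not per length. Mki67 stood at 1010, 1170 and 1120 CPM in the 3 WT RNA-seq libraries and at 1220, 1040 and 1100 CPM in KO. Top2a stood at 781, 887 and 896 CPM in WT and at 949, 834 and 823 CPM in KO. For both genes the WT and KO values interleaved.

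**Figure D1:**
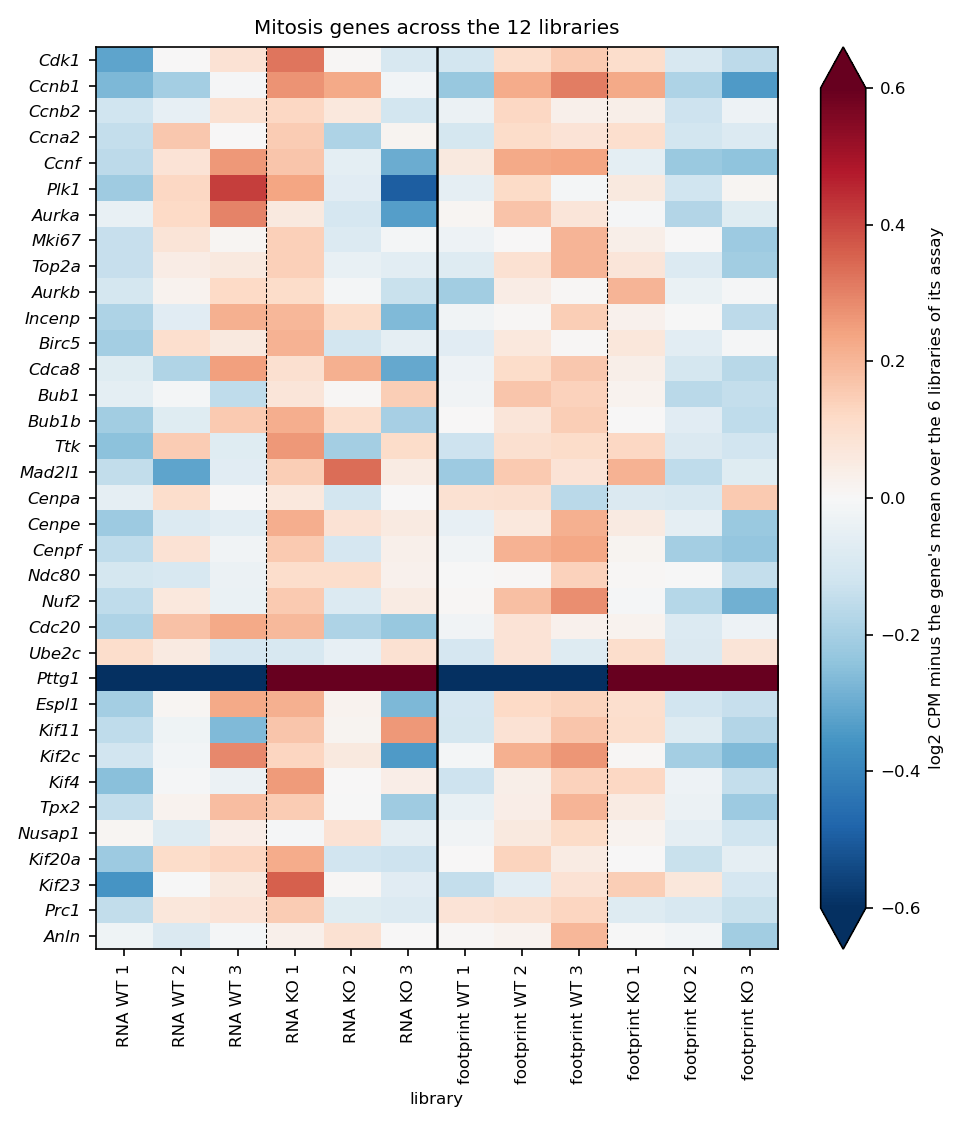
Each row is 1 of the 35 genes and each column 1 library; the colour is the gene's log2 CPM minus its mean over the 6 libraries of that assay, cut at 0.6 in either direction. Pttg1 is below its mean in every WT library and above it in every KO library of both assays, and no other gene reaches either end of the colour scale in all libraries of a group.

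Ribosome footprints relative to RNA were measured within each gene in the 6 WT libraries. Mitosis genes had more footprints per RNA read than the typical gene: 34 of 35 were called higher and 1 lower, by edgeR's quasi-likelihood test with Benjamini-Hochberg adjustment over all genes (adjusted p, written FDR, under 0.05). Of 14385 genes tested, 41.9% were called higher and 43.4% lower, so a call alone separates few genes here and the size of the ratio says more. With the replicate block the members again gave 34 higher and 1 lower. The median log2 ratio of the 35 genes was 1.53, against -0.02 for all genes, whose middle 50% lay between -1.22 and 0.99. Above that upper quartile were 28 of the 35. With scaling by library totals alone the median ratio was 1.21, where all genes shifted by -0.32. The ratio is relative to other genes of these libraries, which were not limited to protein-coding genes, and was not divided by length. It compares assays that differ in the share of counted reads in genes, 27.0% to 28.5% in RNA-seq and 72.3% to 73.1% in footprints. An offset between protein-coding genes and all genes tested was therefore not separated from the ratios of the members. For this ratio TMM was taken over the 6 WT libraries together, but for the CPM within each assay. The log2 ratios given below are the fitted values and differ from the ratio of the CPM printed beside them.

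The highest ratios were those of Kif20a, Cdk1 and Cdc20. Kif20a, a kinesin that brings regulators to the spindle midzone, had 43.2, 54.3 and 55.0 CPM in WT RNA-seq and 266, 292 and 275 CPM in WT footprints, a log2 ratio of 2.73 (SE 0.10, FDR 4.31e-12). Cdk1, the kinase that drives entry into mitosis, had 49.6, 61.8 and 65.4 CPM in RNA-seq and 279, 324 and 336 CPM in footprints, a log2 ratio of 2.69 (SE 0.11, FDR 1.07e-11). Cdc20, the activator that turns the anaphase-promoting complex on, followed with 30.8, 39.6 and 41.0 CPM in RNA-seq and 172, 185 and 178 CPM in footprints, a log2 ratio of 2.54 (SE 0.10, FDR 1.06e-11). These 3 values lie within 2 SE of their neighbours in the order, which goes on with Plk1 at 2.46 and Ccnb2 at 2.45, so their order was not resolved.

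At the other end stood Cenpa, the histone H3 variant that marks centromeres, as the only one of the 35 with a lower level in footprints than in RNA-seq, on the scale of reads in genes after TMM. Its levels were 93.8, 105 and 97.7 CPM in RNA-seq and 55.5, 55.8 and 46.6 CPM in footprints, a log2 ratio of -0.62 (SE 0.09, FDR 1.61e-05). Prc1, which bundles microtubules of the midzone, had 129, 150 and 151 CPM in RNA-seq and 161, 162 and 166 CPM in footprints, a log2 ratio of 0.46 (SE 0.08, FDR 7.61e-05). Ccnb1, the cyclin B1 partner of Cdk1, had 15.6, 16.3 and 18.7 CPM in RNA-seq and 15.6, 21.4 and 22.6 CPM in footprints, a log2 ratio of 0.50 (SE 0.14, FDR 0.00433). With library totals alone the ratios of Prc1 and Ccnb1 were 0.15 and 0.19 and were no longer called. Ccnb2, cyclin B2, the other B-type partner of Cdk1, had a ratio of 2.45 (SE 0.09). The difference between the 2 cyclin B genes was not tested.

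**Figure D2:**
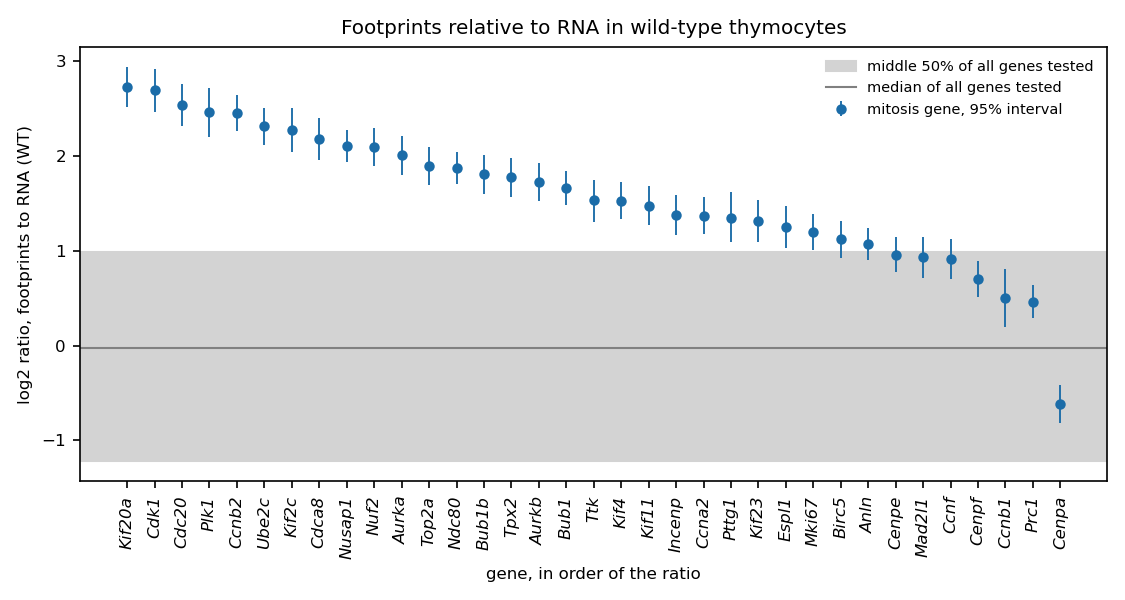
Points give the log2 ratio of footprints to RNA of each mitosis gene in the 6 WT libraries, in order, with 95% intervals; the grey band is the middle 50% of all genes tested (-1.22 to 0.99). From Kif20a at 2.73 to Anln at 1.07, 28 genes lie above the band, and Cenpa at -0.62 is the only one below 0.

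High ratios were not particular to cell division: 13 myeloid genes had a median log2 ratio of 2.30, with 12 called higher, and 11 tested stromal and epithelial genes a median of 1.53, with 9 called higher. The medians were 1.09 for CD4- CD8-, 0.75 for CD4+ CD8+, 0.74 for mature T cell, 0.44 for B cell and 0.02 for erythroid genes. Of the cell division lists, most also lay above 0. Of 49 DNA replication genes, 46 had a higher and 1 a lower ratio, with a median of 1.71. Among 31 further spindle and cytokinesis genes 27 were higher and 2 lower (median 1.24), among 36 further kinetochore and checkpoint genes 27 were higher and 5 lower (median 0.99), and among 21 condensin and cohesin genes 16 were higher and none lower (median 0.97). Subunits and partners of the anaphase-promoting complex, 17 genes, gave 12 higher and 4 lower (median 0.62). The 26 transcription factors and regulators of mitosis genes gave 10 higher and 11 lower with a median of -0.14, near that of all genes.

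The main comparison asked how the mitosis genes differed in thymocytes without miR-181a/b-1. In RNA-seq 1 of the 35 genes was called, Pttg1, which was higher in KO, where 943 of 13652 genes (6.91%) were called, 475 of them higher (293 of 1076 with library totals alone). In footprints 3 were called, Pttg1 higher and Ccnf and Prc1 lower, where 2376 of 13509 genes (17.6%) were called and 8.34% were called lower. With the replicate block, Pttg1 was the only one of the 35 called in either assay, where 0.806% of all genes were called in RNA-seq and 3.02% in footprints. Without the block, the share of the list that was called lay below that of all genes in both assays.

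**Figure D3:**
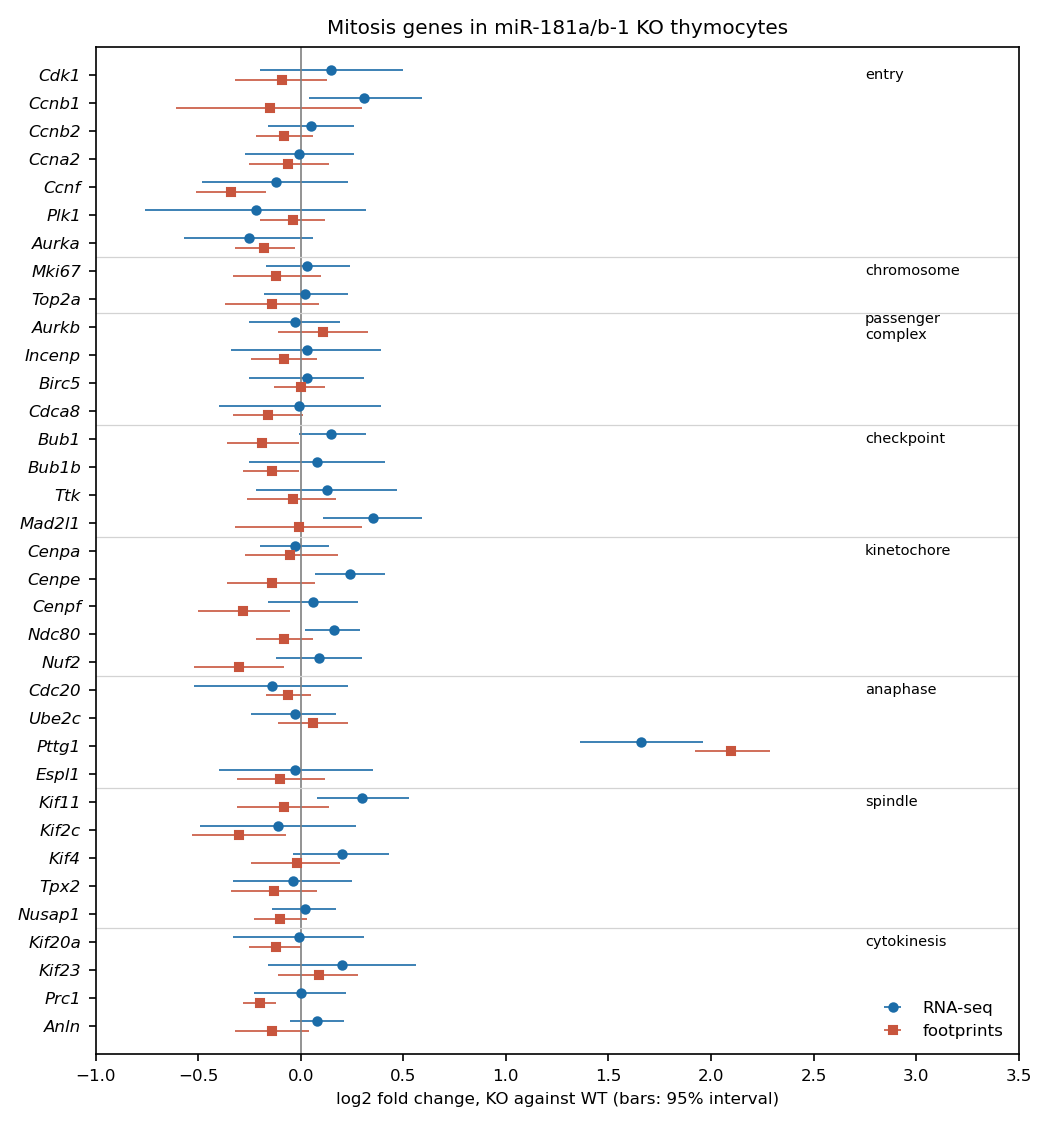
Points give the log2 fold change of KO against WT in RNA-seq (circles) and footprints (squares) with 95% intervals, genes grouped by role. Pttg1 stands at 1.66 in RNA-seq and 2.10 in footprints, and the other 34 genes lie between -0.25 and 0.35 in RNA-seq and between -0.34 and 0.11 in footprints.

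Pttg1 encodes securin, the inhibitor that holds separase inactive until anaphase and is itself destroyed through the anaphase-promoting complex. Its RNA stood at 11.8, 13.4 and 10.5 CPM in WT and at 37.4, 33.1 and 41.3 CPM in KO. All KO values were higher than all WT values, and the KO mean was 37.3 ± 4.07 CPM against 11.9 ± 1.46 (SD, n = 3). The log2 fold change was 1.66 (SE 0.12), a 3.16-fold rise, with FDR 0.00216 by edgeR's quasi-likelihood test and 0.00127 with the replicate block.

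Footprints on Pttg1 rose as well. They stood at 24.0, 27.1 and 23.6 CPM in WT and at 112, 99.1 and 113 CPM in KO, with means of 24.9 ± 1.89 and 108 ± 7.80 CPM (SD, n = 3). Again no KO library came near a WT library. The log2 fold change was 2.10 (SE 0.08), a 4.30-fold rise, with FDR 8.48e-05 by edgeR's quasi-likelihood test and 4.38e-06 with the replicate block. These values rest on 74 to 96 reads per library in WT RNA-seq, 140 to 331 in KO RNA-seq, 249 to 484 in WT footprints and 461 to 1526 in KO footprints. Among genes with a log2 CPM of at least 3 that were called higher, the rise of Pttg1 ranked 11th of 392 in RNA-seq and 9th of 994 in footprints.

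The rise of footprints beyond that of RNA, meaning the change in translation, had a log2 value of 0.44 (SE 0.15) for Pttg1. This difference was not called (FDR 0.236, 0.998 with the block, by edgeR's quasi-likelihood test on the interaction of genotype and assay). Its 95% interval ran from 0.11 to 0.77 (0.00 to 0.91 with the block) before adjustment for all genes tested. Left out 1 at a time, the libraries gave log2 fold changes of 1.57 to 1.76 in RNA-seq and 2.07 to 2.17 in footprints, with FDRs of at most 0.0166 and 0.000661. In the authors' deposited tables Pttg1 is also given as higher, with log2 fold changes of 1.33 in RNA-seq and 1.94 in footprints.

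Espl1, the separase that securin inhibits, was not called in either assay. Its RNA stood at 64.9, 75.2 and 87.3 CPM in WT and at 86.6, 75.8 and 61.9 CPM in KO, and its footprints at 133, 156 and 157 CPM in WT and at 153, 132 and 130 CPM in KO. WT and KO values overlapped in both assays, with log2 fold changes of -0.03 (SE 0.15, FDR 0.945) and -0.10 (SE 0.09, FDR 0.519). Pttg1 CPM divided by Espl1 CPM was 0.120 to 0.181 in WT and 0.432 to 0.667 in KO RNA-seq, and 0.15 to 0.18 in WT and 0.731 to 0.870 in KO footprints. These ratios are not per length, so only their change between genotypes can be read. The remaining anaphase genes, Cdc20 and Ube2c, the E2 enzyme of the anaphase-promoting complex, had log2 fold changes of -0.14 and -0.03 in RNA-seq and of -0.06 and 0.06 in footprints, none called.

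**Figure D4:**
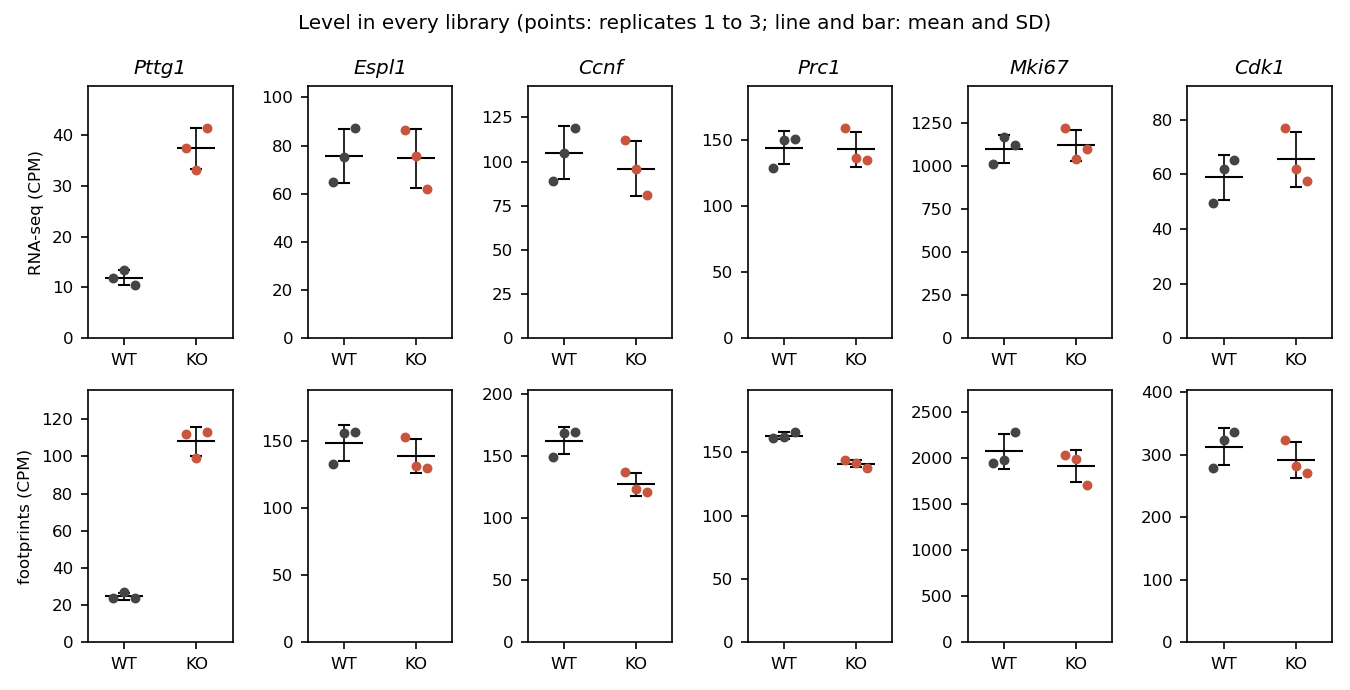
CPM in each library for 6 of the genes, RNA-seq above and footprints below, WT in grey and KO in red; the line and bar are the mean and SD of 3 libraries and each axis starts at 0. For Pttg1 the groups are far apart in both assays, for Ccnf and Prc1 they are apart in footprints only, and for Espl1, Mki67 and Cdk1 they overlap.

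Of the 7 genes of mitotic entry, 1 passed the test. Ccnf encodes cyclin F, which does not drive a kinase but serves as the substrate arm of a ubiquitin ligase. Its footprints stood at 149, 168 and 169 CPM in WT and at 137, 123 and 121 CPM in KO, so that the groups did not overlap. They fell by 0.34 on the log2 scale (SE 0.07, FDR 0.0213 by edgeR's quasi-likelihood test), and the FDR was 0.103 with the replicate block. The call was also lost when WT replicate 2 or 3 or KO replicate 2 or 3 was left out, with FDRs of 0.0567 to 0.0741. Its RNA, at 89.2, 105 and 119 CPM in WT and 112, 95.7 and 81.0 CPM in KO, overlapped between genotypes (log2 fold change -0.12, SE 0.15, FDR 0.666).

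The central engine of entry gave no call. Cdk1 RNA was at 49.6, 61.8 and 65.4 CPM in WT and 76.9, 62.0 and 57.6 CPM in KO, and its footprints were at 279, 324 and 336 CPM in WT and 324, 282 and 270 CPM in KO. The log2 fold changes were 0.15 (SE 0.15, FDR 0.581, 0.853 with the block) and -0.09 (SE 0.09, FDR 0.539, 0.721 with the block). Its partner Ccnb1 had 22.7, 22.0 and 18.6 CPM in KO RNA-seq against 15.6, 16.3 and 18.7 CPM in WT, and 21.4, 16.1 and 14.5 CPM in KO footprints against 15.6, 21.4 and 22.6 CPM in WT. The RNA values overlapped only through WT replicate 3 and KO replicate 3, and the footprint values overlapped over most of their range. The log2 fold changes of Ccnb1 were 0.31 (SE 0.11, FDR 0.166, 0.676 with the block) and -0.15 (SE 0.19, FDR 0.630, 0.745 with the block).

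Plk1, the kinase that matures centrosomes and helps to switch Cdk1 on, was also not called. Its RNA stood at 29.7, 37.5 and 46.0 CPM in WT and at 40.7, 32.9 and 24.4 CPM in KO, and its footprints at 163, 184 and 168 CPM in WT and at 177, 156 and 171 CPM in KO. The groups overlapped in both assays, with log2 fold changes of -0.22 (SE 0.23, FDR 0.611, 0.834 with the block) and -0.04 (SE 0.07, FDR 0.749, 0.899 with the block). The other entry genes, Ccnb2, the S and G2 phase cyclin Ccna2 and the centrosome kinase Aurka, had values of -0.25 to 0.05 in RNA-seq and -0.18 to -0.06 in footprints. Aurka gave the lowest value of the 7 in RNA-seq, and its footprints, 124 to 139 CPM in WT and 109 to 123 CPM in KO, did not overlap but were not called (FDR 0.104).

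Neither chromosome gene was called. Mki67 had log2 fold changes of 0.03 in RNA-seq (SE 0.09, FDR 0.852, 0.968 with the block) and -0.12 in footprints (SE 0.09, FDR 0.421, 0.655 with the block), where it stood at 1940, 1980 and 2280 CPM in WT and at 2030, 1990 and 1710 CPM in KO. Top2a had 0.02 in RNA-seq (SE 0.08, FDR 0.899, 0.980 with the block) and -0.14 in footprints (SE 0.10, FDR 0.350, 0.575 with the block), at 2350, 2640 and 2850 CPM in WT and 2610, 2340 and 2140 CPM in KO. Both genes have at least 3524 reads in every library. Their 95% intervals in footprints, -0.33 to 0.10 and -0.37 to 0.09 (-0.36 to 0.12 and -0.39 to 0.10 with the block), bound the size of a change in these libraries.

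The 4 members of the chromosomal passenger complex, which corrects faulty attachments, are the kinase Aurkb, the scaffold Incenp, survivin (Birc5) and borealin (Cdca8). They lay between -0.03 and 0.03 in RNA-seq and between -0.16 and 0.11 in footprints, with no call. In the checkpoint group, the kinases Bub1 and Ttk, the kinase-like Bub1b and Mad2l1, the protein that captures Cdc20, had log2 values of 0.08 to 0.35 in RNA-seq and -0.19 to -0.01 in footprints. Mad2l1 had the highest RNA value of any member but Pttg1. Its RNA stood at 64.7, 57.5 and 68.3 CPM in WT and at 79.4, 90.2 and 74.2 CPM in KO, groups that did not overlap, and its log2 fold change of 0.35 (SE 0.10) was not called (FDR 0.0887, 0.464 with the block). Its footprints, 84.8, 110 and 105 CPM in WT and 114, 88.8 and 93.8 CPM in KO, overlapped.

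The kinetochore group holds Cenpa, the motor Cenpe, the outer protein Cenpf, and Ndc80 and Nuf2, which together form the arm that grips microtubules. By edgeR none was called, with log2 values of -0.03 to 0.24 in RNA-seq and -0.30 to -0.05 in footprints, while DESeq2, and edgeR without the filter on low counts, called Nuf2 and Cenpf lower in footprints (DESeq2 adjusted p 0.0280 and 0.0253). Nuf2 footprints stood at 114, 128 and 137 CPM in WT and at 113, 101 and 92.8 CPM in KO (log2 fold change -0.30, SE 0.09, FDR 0.0722, 0.200 with the block), while those of its partner Ndc80 had a log2 fold change of -0.08 (SE 0.06, FDR 0.367). Cenpf footprints stood at 396, 465 and 471 CPM in WT and at 406, 349 and 342 CPM in KO (log2 fold change -0.28, SE 0.09, FDR 0.0893, 0.231 with the block). The highest KO value of Nuf2 lay just under its lowest WT value, and the groups of Cenpf overlapped.

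Of the spindle genes, the motor Kif11, which pushes spindle poles apart, had a log2 RNA value of 0.30 (SE 0.09, FDR 0.109) and a footprint value of -0.08. Kif2c, which takes microtubules apart at centromeres, had -0.11 in RNA-seq and -0.30 in footprints (SE 0.10, FDR 0.0811, 0.204 with the block), with 136, 159 and 164 CPM in WT footprints and 138, 119 and 114 CPM in KO. The chromokinesin Kif4 and the microtubule-binding Tpx2 and Nusap1 lay between -0.04 and 0.20 in RNA-seq and between -0.13 and -0.02 in footprints. By edgeR no spindle gene was called in either assay, while DESeq2 (adjusted p 0.0261), and edgeR without the filter on low counts, called Kif2c lower in footprints.

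Cytokinesis gave the other call. Prc1 footprints stood at 161, 162 and 166 CPM in WT and at 144, 142 and 138 CPM in KO, so that the groups did not overlap. Their log2 deviations from the gene's mean were mirrored, at 0.081, 0.098 and 0.129 in WT and -0.076, -0.097 and -0.135 in KO. The small spread is therefore not that of independent libraries. Prc1 footprints fell by 0.20 on the log2 scale (SE 0.03, FDR 0.0107 by edgeR's quasi-likelihood test), a call that did not hold with the replicate block (FDR 0.258) or with DESeq2 (adjusted p 0.0665). Prc1 RNA, at 129, 150 and 151 CPM in WT and 159, 136 and 135 CPM in KO, overlapped (log2 fold change 0.00, SE 0.09, FDR 0.992). The kinesins Kif20a and Kif23 and the contractile ring protein Anln had log2 values of -0.01 to 0.20 in RNA-seq and -0.14 to 0.09 in footprints and were not called.

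Apart from Pttg1, most of the list differed by less than 1.5-fold between genotypes. The 95% interval of 31 of the other 34 genes lay within 1.5-fold in either direction in RNA-seq, and that of 33 in footprints (29 and 33 with the block). KO and WT values did not overlap for 8 of the 35 genes in RNA-seq (22.9%, against 30.9% of all genes tested), with KO above WT in each of the 8, and for 7 in footprints (20%, against 38.1%), with KO below WT for 6 and above for Pttg1. The median log2 fold change was 0.03 in RNA-seq, against 0.00 for all genes, and -0.10 in footprints, against -0.01. Single libraries moved these medians: in RNA-seq to -0.01 without WT or KO replicate 1 and to 0.09 without WT or KO replicate 3, and in footprints to -0.16 without WT or KO replicate 1 and to -0.06 without KO replicate 3. With library totals alone the RNA-seq median was -0.04 and that of all genes shifted by -0.07, so a direction for the list in RNA-seq cannot be given. In footprints 31 of the 35 values were below 0, against 51.6% of all genes. The genes share libraries and are not independent, and this share is a description.

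The translation term was below 0 for 29 of the 35 genes, against 48.0% of all genes. Its median was -0.15 against 0.01 for all genes, with a range from -0.47 (Ccnb1) to 0.44 (Pttg1). It was also below 0 for 104 of the 147 other mitosis genes described below and for 39 of 49 DNA replication genes. The genes share libraries and are not independent, so these shares are a description. By edgeR's quasi-likelihood test no member was called (25 of all 11854 genes tested, 0.211%), the lowest FDR being 0.194, for Cenpe. An unadjusted p under 0.05 was reached by 8 members, and by 2 with the replicate block, and DESeq2 also called 0. With library totals alone the median was -0.08 and that of all genes shifted by 0.07, and without KO RNA-seq replicate 1 it was -0.09. RNA-seq values above 0 together with footprint values below 0 were found for 19 genes, both below 0 for 12 and both above 0 for 2, counted on unrounded values, some of them close to 0. Across the 35 genes the log2 fold changes of RNA and footprints had a Pearson correlation of 0.88, which was 0.17 over the 34 genes without Pttg1.

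The wider mitosis pathway was given by 6 further lists, 147 genes in all, none of them members. In RNA-seq 1 rose and 1 fell, in footprints 2 rose and 14 fell, and with the replicate block none was called in either assay. These counts are 1.36% and 10.9% of the 147 genes, below the 6.91% and 17.6% of all genes called. By direction, 9.52% of the 147 were called lower in footprints, near the 8.34% of all genes, and 1.36% higher. Their median log2 fold change was 0.05 in RNA-seq and -0.07 in footprints. Among the 26 transcriptional regulators, E2f2, an activating E2F, fell in both assays, by 0.44 (SE 0.08, FDR 0.0325) and 0.38 (SE 0.08, FDR 0.0192) on the log2 scale, with FDRs of 0.252 and 0.0875 with the block. The repressor-type E2f8 (-0.33), E2f4 (-0.23) and Foxm1 (-0.17), the last an activator of late cell cycle genes, also fell in footprints, while Rbl2 (0.23), which encodes the pocket protein p130, and the Cdk inhibitor gene Cdkn1b (0.15) rose. Their FDRs in footprints were 0.0175 to 0.0355, and 0.110 to 0.465 with the block.

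Of 36 further kinetochore and checkpoint genes, 4 fell in footprints (11.1%, where 8.34% of all genes fell) and none was called in RNA-seq. Among them were Spc25 (-0.48, FDR 0.0354, 0.0732 with the block) and Spc24 (-0.12, FDR 0.0411, 0.528 with the block), which with Ndc80 and Nuf2 make up the Ndc80 complex. The others were Dsn1 (-0.40, FDR 0.0434, 0.145 with the block) of the Mis12 complex and Hjurp (-0.13, FDR 0.0372, 0.497 with the block), the chaperone of Cenpa. Among 16 regulators of entry, Cdk2 (-0.27, FDR 0.0329, 0.172 with the block) and the phosphatase Cdc25a (-0.17, FDR 0.0289, 0.420 with the block) fell in footprints. Among 21 condensin and cohesin genes, the cohesin release factor Wapl (-0.17, FDR 0.0160, 0.336 with the block) and Ncaph2 (-0.17, FDR 0.0438, 0.407 with the block) did. Of 31 further spindle and cytokinesis genes, Tubg1 (-0.23, FDR 0.0468, 0.290 with the block) and Kif22 (-0.12, FDR 0.0399, 0.513 with the block) fell in footprints and Haus3 rose in RNA-seq (0.70, FDR 0.0135, 0.0534 with the block). None of the 17 genes around the anaphase-promoting complex, through which securin is destroyed, was called in either assay, and none of the 49 DNA replication genes, tested as a list outside the pathway, was called.

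Markers of thymocyte stages and other cells were measured beside Pttg1. In RNA-seq 9.09% of CD4- CD8-, 18.2% of CD4+ CD8+ and 33.3% of mature T cell genes were called, against 6.91% of all genes. In footprints the shares were 18.2%, 27.3% and 44.4%, against 17.6% of all genes. With the block 0.806% of all genes were called in RNA-seq and 3.02% in footprints. The lists are short, so 1 gene moves a share far. Il2ra, a marker of CD4- CD8- thymocytes, was at 47.4 to 56.0 CPM in WT and 90.7 to 105 CPM in KO RNA-seq and rose in both assays, also with the block. Of the other 10 genes of that stage, Ptcra, the invariant partner of the early T cell receptor, fell in footprints by 0.37 (FDR 0.0293, 0.155 with the block) and none was called in RNA-seq. The summed level of the 11 genes was 693 to 758 CPM in WT and 727 to 803 CPM in KO RNA-seq, and 1120 to 1160 against 1190 to 1230 CPM in footprints. Among 11 genes of CD4+ CD8+ cells 1 rose and 1 fell in RNA-seq and 2 rose and 1 fell in footprints, of which the rise of Cd4 (0.57, FDR 0.00335, 0.0121 with the block) held with the block; their footprint sum was 24600 to 25700 CPM in WT and 24000 to 25000 CPM in KO. Among 9 genes of mature T cells, Klf2 (-0.82, FDR 0.0223, 0.141 with the block) and Ccr7 (-0.64, FDR 0.00621, 0.110 with the block) fell in RNA-seq, and Cd69, an activation marker, rose in both assays, in footprints by 0.60 (FDR 0.00309, 0.0138 with the block). Their sum was 726 to 770 CPM in WT and 743 to 785 CPM in KO RNA-seq, and 1220 to 1320 against 1330 to 1440 CPM in footprints.

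Lists of other cell types also held called genes. Of the genes tested in RNA-seq, 16.7% of myeloid, 0.0% of B cell, 16.7% of erythroid and 22.2% of stromal and epithelial genes were called. All genes gave 6.91%. In footprints the shares were 33.3%, 22.2%, 33.3% and 16.7%, against 17.6% of all genes (3.02% with the block). Of 13 myeloid genes, S100a8 and S100a9 rose in RNA-seq, though not with the block, and in footprints S100a8, Mpo and Elane rose, also with the block, and Flt3 fell; their sum in footprints was 347 to 459 CPM in WT and 421 to 596 CPM in KO. Of 9 B cell genes 2 rose in footprints, Cd79b also with the block, with a sum of 301 to 378 CPM in WT and 355 to 455 CPM in KO. Of 11 erythroid genes, Hbb-bs fell in RNA-seq, and in footprints Car2 rose by 1.29 (FDR 0.000633, 0.00245 with the block) and Alas2 fell; the sum was 82.5 to 99.4 CPM in WT and 58.5 to 72.0 CPM in KO RNA-seq, and 48.0 to 84.6 against 54.2 to 95.2 CPM in footprints. Of 12 stromal and epithelial genes 1 rose and 1 fell in each assay, none with the block, with sums of 233 to 236 CPM in WT and 254 to 259 CPM in KO RNA-seq. No marker gene was at 0 in all libraries, but the filter on low counts left some untested. Tested were 12 of the 13 myeloid and 6 of the 11 erythroid genes in each assay, and 9 of the 12 stromal and epithelial genes in RNA-seq. Their part in the change of Pttg1 was not tested.

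Of the 5 tested genes on each side of Pttg1 in the RefSeq order, a set chosen after the values of Pttg1 were known, 2 of 10 were called in RNA-seq, where 6.91% of all genes were called, and 1 in footprints, where 17.6% were, and none with the block. The neighbour Ccng1, a target of p53 that encodes cyclin G1, rose by 0.62 (FDR 0.0102, 0.0760 with the block) in RNA-seq and 0.39 (FDR 0.00773, 0.102 with the block) in footprints. Slu7, a splicing factor gene, rose by 0.35 in RNA-seq (FDR 0.0316, 0.411 with the block) and had 0.01 in footprints. Whether counting used strand is not given in the sources used here, so reads of genes that overlap on opposite strands cannot be told apart.

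For RNA-seq the authors' deposited table marks Pttg1 as significantly higher and the other 34 genes as not significant. For footprints the authors' deposited table marks Pttg1 as higher and 5 genes as lower: Ccnf, Cenpf, Kif2c, Nuf2 and Prc1. The log2 fold changes of those 5 in the authors' deposited table lie between -0.33 and -0.19. Of the 5, Ccnf and Prc1 were also called by edgeR without the block, and none with it.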

How the data were processed

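The data are 3 libraries in each of 4 groups (WT and KO, RNA-seq and footprints), grouped by their titles. The authors deposited whole-number read counts per Ensembl gene, in 1 table per assay named as adjusted, without a statement of what was adjusted. FastQC, Bowtie2 2.5.1, STAR 2.7.10a, HTSeq 2.0.3 and DESeq2 1.40.2 are named in the submitters' processing notes, while genome build, annotation and use of strand were not given in the sources used here. Comparison tables deposited by the authors (log2 fold changes and adjusted p, per the file headers) were used only where named; their 12 columns of per-library values were not used. Rows for reads outside genes were left out of library sizes: 50.9% to 57.1% of RNA-seq and 5.3% to 6.4% of footprint reads lay in no feature.

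Counts were fitted over all genes with edgeR 4.0.16 in R 4.3.3 (TMM, filterByExpr with a minimum count of 10, quasi-likelihood test, Benjamini-Hochberg FDR under 0.05), for each assay alone, for the interaction of genotype and assay over 12 libraries, and for footprints against RNA in WT. CPM use totals scaled by TMM within each assay, while the WT ratio used TMM over the WT libraries of both assays together. The SE is the log2 fold change divided by the square root of F. Fits were also run on simulated counts, drawn independently for each library with a fixed spread. Such counts lack the mirrored spread of the real libraries, so they cannot show that the FDRs hold here. Alternatives were RLE factors, library totals alone, no filter, DESeq2 1.42.0, the replicate block, FDR under 0.1 and omission of each library. Same-numbered WT and KO libraries deviated in opposite directions (correlation -0.99 to -0.97, against 0.21 to 0.70 for other pairs), so in these counts they are not independent of each other. The fits without the block take them as independent, so the FDRs of those fits may be too low. The labels do not say what a number marks, so the main fits left it out and the block was an alternative. The p-values measure the spread between these libraries. Depth ranged from 4069968 to 17859770 reads in genes.

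The 35 genes, their roles and the other lists were chosen with earlier results of these data known. Described in full were members called in RNA-seq, footprints or translation and always Mki67, Top2a, Cdk1, Ccnb1, Plk1 and Pttg1, the 3 highest and 3 lowest WT ratios, and of each further list up to 3 called genes with the largest change per assay. Other genes named with values (Mad2l1, Nuf2, Cenpf, Kif2c, Aurka, Espl1, Spc24, Hjurp, E2f4, Foxm1, Cdkn1b, Rbl2, the neighbours of Pttg1) were named after their values were seen. Coordinates and sequences are those of RefSeq on GRCm38.p6. Transcripts were not scanned for miR-181 sites and levels were not put per length.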

Additional observations from a re-analysis of the deposited data

How the results depend on the processing

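The rise of Pttg1 in both assays, the absence of a called translation change and the 35 called WT ratios did not depend on RLE factors, the missing filter, DESeq2, the block or the omission of any library; with library totals alone 33 ratios were called. At FDR under 0.1, 3 members were called in RNA-seq and 6 in footprints. Members called in footprints numbered 6 without a filter, 5 with DESeq2, 1 with the replicate block and 2 to 6 when 1 library was left out; the 6, without WT replicate 1, were Ccnf, Cenpf, Kif2c, Nuf2, Prc1 and Pttg1. The median WT ratio was 1.21 with library totals alone and 1.48 to 1.65 with 1 library left out. The replicate block ended the footprint calls of Ccnf and Prc1 and changed no other call of the 35 genes. It raised the SE from 0.03 to 0.08 for Prc1, with the log2 fold change at -0.20 in both fits. For Ccnf the SE went from 0.07 to 0.10, with log2 fold changes of -0.34 and -0.35. The cause was not tested. Library totals alone gave 293 of 1076 RNA-seq calls as higher over all genes, against 475 of 943 with TMM.

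Members near 0 changed sign without a call. In RNA-seq, library totals alone gave Ccnb2 -0.03, Mki67 -0.04, Top2a -0.05, Incenp -0.05, Birc5 -0.04, Cenpf -0.02 and Nusap1 -0.06, and no filter gave 0.00 for Ccna2 and Prc1. RLE and DESeq2 gave 0.00 for Birc5 footprints. For translation, library totals alone gave Ccna2 0.02, Birc5 0.03 and Cenpa 0.06, and the replicate block 0.00 for Cenpa. With 1 library left out, RNA-seq values ran from 0.00 to 0.11 for Ccnb2, -0.09 to 0.07 for Ccna2, -0.03 to 0.08 for Mki67, -0.05 to 0.06 for Top2a, -0.09 to 0.03 for Aurkb, -0.07 to 0.15 for Incenp, -0.07 to 0.09 for Birc5, -0.11 to 0.14 for Cdca8, -0.01 to 0.19 for Bub1b, -0.07 to 0.01 for Cenpa, -0.01 to 0.12 for Cenpf, -0.10 to 0.01 for Ube2c, -0.15 to 0.10 for Espl1, -0.21 to 0.03 for Kif2c, -0.13 to 0.05 for Tpx2, -0.03 to 0.04 for Nusap1, -0.14 to 0.05 for Kif20a and -0.08 to 0.04 for Prc1. Footprint values ran from -0.08 to 0.02 for Plk1, -0.04 to 0.03 for Birc5, -0.13 to 0.07 for Mad2l1 and -0.09 to 0.03 for Kif4. Translation values ran from -0.13 to 0.02 for Ccna2, -0.02 to 0.39 for Plk1, -0.04 to 0.18 for Aurka, -0.09 to 0.06 for Birc5, -0.09 to 0.03 for Cenpa, -0.01 to 0.23 for Cdc20, -0.20 to 0.05 for Espl1, -0.19 to 0.00 for Kif20a and -0.21 to 0.02 for Kif23.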
